A study of Mus musculus with 9 samples.

Results

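The comparison is the loss of IκBα in the EphB2-negative cells of the neonatal mouse intestine. It was made of 4 of the 9 RNA-seq libraries of the study: 2 from cells with the genotype IkBa KO and 2 from wild-type (WT) cells, chosen by sample title. All 9 libraries came from the intestine of C57BL/6 mice at postnatal day 6. The tissue was digested to single cells with trypsin and collagenase, and the cells were sorted with an APC-coupled antibody against EphB2 into a positive and a negative fraction, with no treatment named. The remaining 5 libraries are the EphB2-positive fractions (3 KO, 2 WT) and enter here through the shared fit and 1 closing comparison. The labels do not give the allele, the promoter or the tissue of the deletion, the sex, or whether replicates came from separate animals or from pools, and the p-values therefore reflect only how far these samples spread, which may be technical.

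IκBα, encoded by Nfkbia, is an inhibitor that holds NF-κB dimers in the cytoplasm. Signals from cytokine and microbial receptors lead to its destruction, the dimers then enter the nucleus, and Nfkbia is itself one of their targets, which closes a feedback loop. EphB2, a receptor for membrane-bound ephrins, is held high on intestinal crypt cells by Wnt signalling and falls as cells move up the villus. The negative fraction of a digested intestine can therefore hold villus enterocytes, secretory cells and whatever other cells came through the digest, and before weaning the enterocytes are specialised for milk. They take up fat and whole protein, make arginine and form ketone bodies.

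The 4 EphB2-negative libraries held 2050308 and 1954013 reads in genes (WT replicates 1 and 2) and 1790808 and 1924360 (KO replicates 1 and 2), within the 1503972 to 2074076 of all 9. At this depth 3 reads equal 1.37 to 2.002 CPM in 1 library, and the floors and intervals given below cover counting error only, since the cDNA was amplified and carries no molecular identifiers. The WT pair did not match each other. On the log2 CPM scale (CPM puts read counts on a common library total), libraries were correlated across genes, 1 against another. WT replicate 1 correlated at 0.863 with WT replicate 2 and at 0.941 and 0.942 with the WT EphB2-positive libraries. The KO pair correlated at 0.967. Against the KO libraries, WT replicate 1 correlated at 0.742 and 0.741, and WT replicate 2 at 0.864 and 0.859. WT replicate 2 was thus about as close to KO as to WT replicate 1. The summed level of 11 pan-leukocyte markers was 134 CPM in WT replicate 1, 1175 CPM in WT replicate 2 and 1680 and 1275 CPM in the KO libraries. A list of 20 pancreatic acinar genes, drawn up after values had been seen, summed to 3136 CPM in WT replicate 1, against 192, 60.1 and 254.7 CPM in the other libraries. Sex-linked transcripts also differed, with Xist at 34.2 CPM in WT replicate 1, 435.5 CPM in WT replicate 2 and 0 in both KO libraries, and the sex of the cells cannot be told apart from the library. For these reasons values are given for each library, in the fixed order WT replicate 1, WT replicate 2, KO replicate 1, KO replicate 2. The CPM are scaled by trimmed mean of M values (TMM), and log2 fold changes (KO over WT) come with their standard error from edgeR's quasi-likelihood test on all 9 libraries. A gene "rose" or "fell" where its Benjamini-Hochberg adjusted p was under 0.05.

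Nfkbia itself (chr12:55489410-55492647, minus strand, GRCm38) gave 21.5 and 55.2 CPM in the WT libraries and no read in either KO library. Against a floor of 3 reads over the KO group it was at least 39.5-fold lower (edgeR's quasi-likelihood adjusted p = 0.022), so the KO labels and the transcript go together. Ephb2 (chr4:136647539-136835988), the sort marker, stood at 125, 66.8, 30.7 and 34.4 CPM. It fell, with a log2 fold change of -1.56 ± 0.27 (SE; adjusted p = 0.0036), or -1.03 when WT replicate 1 was left out. Both KO libraries lay below both WT libraries, and WT replicate 1 had the highest level. Nfkbia missed the threshold without WT replicate 1, without WT replicate 2, without KO replicate 1, without KO replicate 2, by limma voom, with no filter on low counts and with the leukocyte covariate, at adjusted p of 0.23, 0.22, 0.067, 0.083, 0.066, 0.081 and 0.27.

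Of 11577 genes tested, 3456 (29.9%) passed, and are called below: 1586 (13.7%) rose and 1870 (16.2%) fell. With WT replicate 1 left out the counts were 1748 and 1774, of which 1357 and 1262 were the same genes. Of the genes tested with all libraries, 14.8% rose and 14.6% fell in that fit, and 24.2% rose and 25.0% fell without WT replicate 2. Leaving out WT replicate 2, KO replicate 1 or KO replicate 2 gave 5834, 1727 and 1096 called genes in all, and the 4 EphB2-negative libraries fitted alone gave 149 (3165 at an unadjusted p under 0.05). Of the 142 named genes called, 29 passed in that small fit, 133 by DESeq2 and 94 by limma voom. The misses listed below for single genes leave out that small fit, where 113 missed, and fits with a replicate block. A gene without a listed miss may therefore still have missed there. The small fit called 0 of 18 DNA replication, 0 of 20 mitosis and 0 of 15 crypt base genes. At an unadjusted p under 0.05 these were 12, 10 and 10. It called 6 of 18 antimicrobial and acute phase genes. For each gene list the counts without WT replicate 1, WT replicate 2, KO replicate 1 and KO replicate 2 are given in that order, as the leave-one-out fits, over the members tested in each fit. Each of these fits leaves 1 EphB2-negative library in a group. That group then has no spread of its own and is assumed to vary like the others. Passing without either WT library therefore does not show that the WT libraries agree. A further count is from a fit with the mean log2 level of the pan-leukocyte markers as a covariate, here called the leukocyte covariate. It was 2.76 and 6.29 in the WT EphB2-negative libraries, 6.93 and 6.45 in the KO ones and 0.956 to 1.25 in the EphB2-positive libraries. Within groups it thus differed mainly between the 2 WT EphB2-negative libraries. This fit therefore cannot tell leukocyte content apart from other differences between those 2 libraries. A set of 1300 genes (11.2%) rose and 1158 (10.0%) fell both with all libraries and without either WT library. The log2 ratio of the KO mean to each WT library, with a prior of 0.5 CPM, was above 1 against both for 878 genes and below -1 against both for 893. For 2368 genes it exceeded 1 in size against WT replicate 1 only, and for 652 against WT replicate 2 only. A further 66 genes lay over 1 above the one and over 1 below the other, and none of the called genes had log2 ratios of opposite sign. Both KO libraries lay above both WT libraries in 28.7% of all genes tested and below both in 34.6%, 63.2% together. Most genes described below were picked because they were called. A lack of overlap between the genotypes in them is therefore a description and no further support. Fewer cells of a type and less RNA per cell cannot be told apart in bulk libraries.

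**Figure D1:**
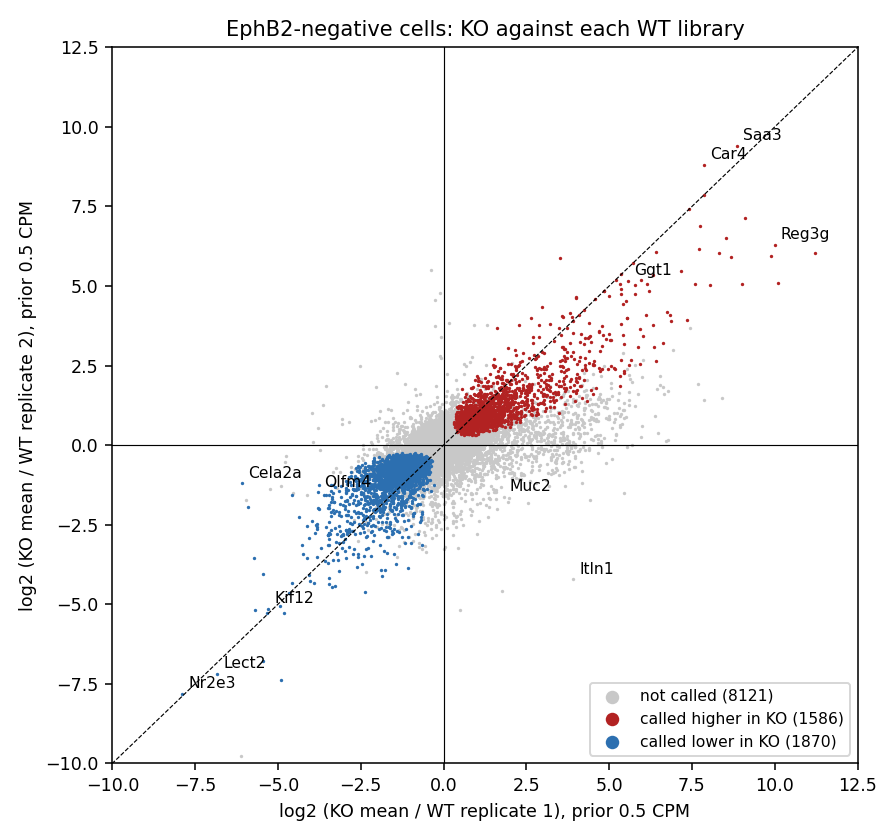
Each point is 1 of 11577 genes, by the log2 ratio of the mean KO CPM to WT replicate 1 (x axis) and to WT replicate 2 (y axis), with a prior of 0.5 CPM; red points rose, blue points fell and grey points did not pass. Called genes lie in the quadrants where both ratios have 1 sign, while Itln1 and Muc2 sit above WT replicate 1 and below WT replicate 2.

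The 15 called genes with the largest rises, a mean of at least 10 CPM in KO and no overlap of the genotypes included 8 that are described first, and the others are given with their lists. Car4, a membrane-anchored carbonic anhydrase, had 0.457, 0, 109 and 339 CPM, where WT rests on 1 read, giving a ratio of 956 (95% counting interval 171 to 37830.1, adjusted p = 9.7e-04). Sprr2a3, a small proline-rich barrier protein of a gene cluster with near-identical copies, went from 4.57 and 8.71 CPM to 1211 and 951 CPM, a log2 fold change of 7.34 ± 0.64 and of 6.94 without WT replicate 1. That every KO value of these genes stood above every WT value follows from how they were chosen. Genes without a WT read were Ly6f, a member of the Ly6 surface protein family (23.03 and 28.7 CPM in KO, a rise of at least 36.7-fold), Prss27, a serine protease (24.95 and 15.3 CPM, at least 28.5-fold), and Duox1, a hydrogen peroxide producing oxidase (13.4 and 22.3 CPM, at least 25.4-fold). Syt8, a synaptotagmin, and Ubd, a ubiquitin-like modifier, likewise had no WT read and 14.1 and 13.4 CPM and 18.6 and 8.91 CPM in KO, which makes each at least 19.5-fold higher. Hp, which encodes the haemoglobin scavenger haptoglobin, had 9.598 and 13.4 CPM in KO (at least 16.3-fold). The adjusted p of these 6 genes was 8.0e-04, 0.0015, 5.6e-04, 0.00497, 0.0067 and 0.014. Ubd and Hp missed the threshold without KO replicate 1, at adjusted p of 0.054 and 0.0796. Syt8 and Hp missed it without KO replicate 2, at adjusted p of 0.0502 and 0.13. Car4, Sprr2a3 and Ubd missed it by limma voom, at adjusted p of 0.35, 0.13 and 0.056.

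The deepest falls were in genes with a few reads or none in KO. Lect2, a secreted chemotactic factor, had 56.6 and 72.1 CPM in WT and no KO read (at least 66.98-fold lower, adjusted p = 2.7e-04). Nr2e3, an orphan nuclear receptor, went from 194 and 185 CPM to 0 and 0.637 CPM, a ratio of 0.00168 (95% counting interval 4.3e-05 to 0.00941, adjusted p = 1.1e-04). Kif12, a kinesin, had 268, 243, 5.76 and 7.005 CPM and a log2 fold change of -5.31 ± 0.25 (adjusted p = 1.1e-05). For these 3 genes the WT libraries were close. That KO lay below both follows from how the genes were chosen, by fall and lack of overlap. The cytochromes Cyp4a10, which hydroxylates fatty acids, and Cyp2w1 had 32.4, 31.5, 0.6398 and 0 CPM and 57.98, 41.1, 0.6398 and 0.637 CPM. Their KO to WT ratios were 0.00999 (95% counting interval 0.000251 to 0.0566) and 0.0128 (95% counting interval 0.00154 to 0.0469). Ces1c, a carboxylesterase with near-identical neighbours, Afm, a vitamin E binding protein, and Sfrp5, a secreted Wnt inhibitor, had no KO read. The lower bounds of their falls were 49.8-fold, 16.9-fold and 16.7-fold (adjusted p = 0.0083, 0.0061 and 0.013). Their WT values were 14.6 and 82.8, 13.7 and 18.9 and 26.02 and 5.32 CPM. Ptprt, a receptor tyrosine phosphatase, fell from 63.9 and 69.7 to 3.199 and 0 CPM (log2 fold change -5.33 ± 0.58). Cym, the milk-clotting protease chymosin, stood at 522, 200.3, 19.2 and 3.82 CPM (log2 fold change -4.97 ± 1.09, adjusted p = 0.017). The pancreatic enzyme gene Cela2a (186, 5.81, 1.92 and 2.55 CPM; adjusted p = 0.049) was high in WT replicate 1 alone, the library with the highest acinar sum, and had a log2 fold change of -1.35 without it (adjusted p = 0.31). Cym and Cela2a missed the threshold without WT replicate 1, at adjusted p of 0.071 and 0.31. Sfrp5, Cym and Cela2a missed it without KO replicate 1, at adjusted p of 0.059, 0.054 and 0.19. Ces1c, Sfrp5, Cym and Cela2a missed it without KO replicate 2, at adjusted p from 0.0505 (Ces1c) to 0.198 (Cela2a). Cym and Cela2a missed it by limma voom, at adjusted p of 0.077 and 0.29. Cela2a missed it with DESeq2 size factors, at an adjusted p of 0.052. Cela2a missed it with no filter on low counts, at an adjusted p of 0.12. Cym and Cela2a missed it with the leukocyte covariate, at adjusted p of 0.103 and 0.38.

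Antimicrobial and acute phase genes rose nearly throughout, and Reg3b was the most abundant transcript of the KO libraries. Such proteins kill or starve bacteria at the mucosal surface and are known targets of NF-κB and STAT3 signalling. In total, 16 of 18 tested members rose, 1 fell and 1 did not pass, with a median log2 fold change of 6.16, against -0.09 over all genes tested. The median log2 ratio was 7.29 against WT replicate 1 and 5.08 against WT replicate 2. In this list, 14, 14, 14 and 11 rose and 1, 1, 1 and 0 fell in the leave-one-out fits, and 14 rose and 1 fell with the leukocyte covariate. Reg3b and Reg3g, C-type lectins that bind bacterial walls, are neighbours on chromosome 6 whose coding sequences are alike enough that the division of reads between them is uncertain. Reg3b had 24.2, 902, 54496 and 64102 CPM, and took 4.76% and 5.23% of all gene reads in the KO libraries. Reg3g had 36.1, 481, 33773 and 41326 CPM. Both KO libraries lay far above both WT libraries, and WT replicate 2 lay above WT replicate 1. The log2 fold changes were 7.001 ± 1.52 (adjusted p = 0.017) and 7.18 ± 1.14 (adjusted p = 0.0049), or 6.04 and 6.29 without WT replicate 1. Reg3a rose from 2.74 and 2.42 to 39.7 and 55.4 CPM (log2 fold change 4.17 ± 0.33, adjusted p = 1.2e-04), with close WT values. Reg3b missed the threshold without KO replicate 2, at an adjusted p of 0.057.

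The list also holds secreted proteins of the acute phase. Saa3, a serum amyloid, had 0.913, 0.484, 304 and 1020.1 CPM, where WT rests on 3 reads, a ratio of 941 (95% counting interval 321 to 4565, adjusted p = 5.7e-04). Saa1, which shares near-identical sequence with Saa2, had no WT read but 24.95 and 145 CPM in the KO libraries, which is at least 120.5-fold more (adjusted p = 0.0099). KO replicate 2 was the higher of the KO pair in both genes. Lcn2, which binds bacterial iron carriers, stood at 0, 1.45, 356 and 196 CPM, a ratio of 392 (95% counting interval 134 to 1903, adjusted p = 8.7e-04). C3, the central complement component, rose from 3.65 and 13.1 to 372 and 821 CPM (log2 fold change 6.16 ± 0.58, adjusted p = 5.1e-04). Lrg1, a secreted glycoprotein, rose from 0 and 1.94 to 179.8 and 139 CPM (log2 fold change 7.31 ± 0.73, adjusted p = 8.8e-04). No KO value of these 3 genes overlapped a WT value, and both KO libraries lay above both WT libraries in 28.7% of all genes tested. Saa1 missed the threshold without WT replicate 1, at an adjusted p of 0.12. Saa1 missed it without WT replicate 2, at an adjusted p of 0.087. Saa1 missed it by DESeq2, at an adjusted p of 0.12. Saa3, Saa1, Lcn2 and Lrg1 missed it by limma voom, at adjusted p from 0.25 (Lrg1) to 0.47 (Saa1).

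Oxidant-producing enzymes are a further group within the list. Duox2, the epithelial peroxide generator, and its maturation factor Duoxa2 had 0, 15.5, 457 and 644 CPM and 0, 7.26, 252 and 262 CPM. Their log2 fold changes were 6.17 ± 0.85 (adjusted p = 0.0032) and 6.16 ± 0.61 (adjusted p = 5.6e-04), or 5.15 and 5.13 without WT replicate 1, which held no read of either. Nos2, inducible nitric oxide synthase, rose from 0.457 and 3.39 to 214 and 485 CPM (log2 fold change 7.49 ± 0.74, adjusted p = 6.3e-04). Retnlb, a goblet cell antimicrobial, had 0, 2.42, 26.2 and 53.5 CPM (log2 fold change 5.01 ± 1.27, adjusted p = 0.032). The 1 member that fell was Reg4, a lectin of enteroendocrine and deep crypt secretory cells, at 406, 1010.5, 106 and 71.96 CPM, and the 1 that did not pass was Cfb, a complement factor, at 157, 264, 189 and 282 CPM. Reg4 was lower in each KO library than in each WT library, and the Cfb values of the genotypes overlapped. Nos2 missed the threshold by limma voom, at an adjusted p of 0.16. Retnlb missed the threshold without WT replicate 1, without WT replicate 2, without KO replicate 1, without KO replicate 2, by limma voom, with no filter on low counts and with the leukocyte covariate, at adjusted p of 0.28, 0.16, 0.056, 0.13, 0.65, 0.095 and 0.36.

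Promoter windows of 6 genes are shown as examples, those of the deleted inhibitor and of 5 genes that rose with its loss. They are not a sample of the genes that rose. Reg3g, Irf1, Nfkb2 and Tnip1 are among the inflammation genes with a κB match listed below. Each line gives the 250 bases before a RefSeq start of the gene in GRCm38.p6 (for Irf1 and Nfkb2, which have several, the one farthest upstream), 5′ to 3′ on the gene's strand, with matches to the κB consensus or the STAT motif TTCNNNGAA on either strand in capitals, overlapping matches merged. The windows are chr12:55492648-55492897 (minus strand) for Nfkbia, chr6:78370635-78370884 (plus) for Reg3b and chr6:78468875-78469124 (minus) for Reg3g. Those of Irf1, Nfkb2 and Tnip1 are chr11:53769764-53770013 (plus), chr19:46304487-46304736 (plus) and chr11:54962941-54963190 (minus).
Nfkbia: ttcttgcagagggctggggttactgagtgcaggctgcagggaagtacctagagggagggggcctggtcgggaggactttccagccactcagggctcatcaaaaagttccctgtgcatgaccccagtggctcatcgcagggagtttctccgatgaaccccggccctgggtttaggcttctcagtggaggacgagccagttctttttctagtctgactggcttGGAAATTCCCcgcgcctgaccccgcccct
Reg3b: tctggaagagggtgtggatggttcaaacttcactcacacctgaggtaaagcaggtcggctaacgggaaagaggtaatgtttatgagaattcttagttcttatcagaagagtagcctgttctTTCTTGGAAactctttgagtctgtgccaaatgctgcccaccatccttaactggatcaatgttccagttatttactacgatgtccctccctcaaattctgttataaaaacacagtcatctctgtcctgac
Reg3g: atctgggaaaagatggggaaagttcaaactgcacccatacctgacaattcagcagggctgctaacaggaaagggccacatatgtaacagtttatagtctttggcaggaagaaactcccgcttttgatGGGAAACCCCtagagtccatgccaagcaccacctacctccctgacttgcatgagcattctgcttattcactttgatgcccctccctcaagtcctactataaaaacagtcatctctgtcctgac
Irf1: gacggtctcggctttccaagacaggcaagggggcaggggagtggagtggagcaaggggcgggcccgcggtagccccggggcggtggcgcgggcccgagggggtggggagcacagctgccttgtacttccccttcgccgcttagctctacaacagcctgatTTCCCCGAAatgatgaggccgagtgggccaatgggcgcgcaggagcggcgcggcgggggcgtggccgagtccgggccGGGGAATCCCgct
Nfkb2: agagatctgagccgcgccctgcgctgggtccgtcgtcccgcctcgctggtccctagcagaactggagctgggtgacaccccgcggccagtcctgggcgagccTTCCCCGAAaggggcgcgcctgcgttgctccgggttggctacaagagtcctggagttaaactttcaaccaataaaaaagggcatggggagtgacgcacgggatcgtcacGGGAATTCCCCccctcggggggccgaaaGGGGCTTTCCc
Tnip1: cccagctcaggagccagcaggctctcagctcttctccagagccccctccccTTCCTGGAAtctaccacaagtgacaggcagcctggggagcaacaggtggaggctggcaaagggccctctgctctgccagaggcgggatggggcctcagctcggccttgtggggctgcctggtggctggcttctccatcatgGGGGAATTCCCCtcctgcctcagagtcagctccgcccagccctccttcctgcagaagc
The Reg3b window holds a STAT match and no κB match, whereas those of Nfkbia and Reg3g hold a κB match and those of Irf1, Nfkb2 and Tnip1 hold both motifs. The window of a second Irf1 start holds neither motif, and those of 2 more Nfkb2 starts hold a κB match only. A κB match was found in 3.9% of 32851 windows, in 5.46% of the 8881 tested genes with a window (counting any window of a gene), in 7.53% of those that rose and in 5.11% of those that fell. The STAT motif was found in 7.02%, 7.47%, 8.89% and 6.84% of the same sets. Of 72 genes of the inflammation lists that rose, 59 had a window and 12 of those a κB match: B2m, Bcl2l1, Bst2, Ccl20, Cxcl10, H2-D1, H2-K1, Irf1, Nfkb2, Nox1, Reg3g and Tnip1. A match is a description of these letters, not a bound site.

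Among the NF-κB and IκB proteins, 5 of 14 tested members rose, 2 fell and 7 did not pass, with a median log2 fold change of 0.98. Of its members, 5, 9, 4 and 2 rose and 0, 1, 0 and 0 fell in the leave-one-out fits, and 4 rose and 0 fell with the leukocyte covariate. Relb, a subunit of the noncanonical dimer, had 13.7, 5.81, 28.2 and 52.9 CPM and a log2 fold change of 2.04 ± 0.55 (adjusted p = 0.024). Nfkb2, the precursor of its p52 partner, had 14.2, 28.6, 62.7 and 61.8 CPM and a log2 fold change of 1.55 ± 0.32 (adjusted p = 0.0072). Both partners were thus higher in each KO library than in each WT library. Bcl3, a nuclear IκB protein that binds p50 and p52, rose from 25.6 and 29.5 to 94.1 and 97.4 CPM (1.80 ± 0.20, adjusted p = 5.1e-04), and by 1.70 without WT replicate 1. Rela, the main activating subunit, rose from 34.2 and 36.3 to 62.1 and 71.96 CPM (0.93 ± 0.19, adjusted p = 0.0069). Nfkb1, the p50 precursor, had 81.3, 87.1, 110.1 and 113 CPM (0.41 ± 0.16, adjusted p = 0.083), and Nfkbiz, a nuclear IκB protein, 20.1, 81.3, 182 and 113 CPM (1.55 ± 0.56, adjusted p = 0.074). Neither passed, although both KO libraries exceeded both WT libraries. Relb missed the threshold without KO replicate 2 and by limma voom, at adjusted p of 0.17 and 0.24. Rela missed the threshold without KO replicate 2 and by limma voom, at adjusted p of 0.061 and 0.071.

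Genes known as NF-κB targets moved in part. In the list, 8 of 16 tested members rose and 8 did not pass, with a median of 1.49, and 8, 12, 6 and 6 rose and 0 fell in each of the leave-one-out fits, and 7 rose and 0 fell with the leukocyte covariate. Zc3h12a, an RNase that degrades cytokine transcripts, had 9.13, 17.9, 121 and 122 CPM, a log2 fold change of 3.17 ± 0.29 (adjusted p = 1.8e-04). Tnip1, a ubiquitin-binding brake on NF-κB, had 52.5, 55.2, 136 and 160.5 CPM (1.46 ± 0.19, adjusted p = 8.7e-04). Irf1, a transcription factor of the interferon and NF-κB programmes, had 133, 155, 425 and 402 CPM (1.52 ± 0.19, adjusted p = 7.7e-04). Tnip1 and Irf1 had close WT values, and no KO value of the 3 genes overlapped a WT value. The adhesion molecule Icam1 rose from 5.94 and 15.002 to 55.7 and 53.5 CPM (2.38 ± 0.39, adjusted p = 0.0029), the apoptosis inhibitor Birc3 from 25.6 and 36.8 to 69.1 and 99.3 CPM (1.43 ± 0.24, adjusted p = 0.00296), and the cytokine gene Tnf from 0.913 and 4.36 to 23.7 and 15.9 CPM (2.89 ± 0.75, adjusted p = 0.021). Tnfaip3, which encodes the deubiquitinase A20, had widely separated WT values, at 5.48, 141, 392 and 269 CPM, with a log2 fold change of 2.18 ± 1.06 and an adjusted p of 0.16. Its log2 ratio was 5.79 against WT replicate 1 and 1.22 against WT replicate 2. Birc2 (35.2, 44.04, 38.4 and 31.2 CPM) and Sod2, a mitochondrial superoxide dismutase (86.7, 75.5, 112 and 82.1 CPM), were among the members that did not pass. Tnf missed the threshold without KO replicate 1, without KO replicate 2, by limma voom and with the leukocyte covariate, at adjusted p of 0.12, 0.076, 0.097 and 0.066.

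Among chemokines, 4 of 11 tested members rose and 7 did not pass, with a median of 0.83, and 5, 7, 3 and 0 rose and 1, 1, 0 and 0 fell in the leave-one-out fits, and 3 rose and 3 fell with the leukocyte covariate. Cxcl9 and Cxcl10, interferon-induced attractants of T cells, had 0, 0.484, 10.9 and 8.91 CPM and 0.457, 0.968, 8.96 and 14.01 CPM. WT rests on 1 to 3 reads for both, and the ratios were 42.1 (95% counting interval 7.02 to 1716) and 16.3 (95% counting interval 5.15 to 82.7, adjusted p = 0.0103 and 0.011). Cxcl16, a membrane-bound chemokine, rose from 1.37 and 9.19 to 39.03 and 62.4 CPM (3.26 ± 0.78, adjusted p = 0.015). Ccl20, which draws CCR6-bearing lymphocytes to the epithelium, had 7.76, 9.68, 21.1 and 89.8 CPM (2.66 ± 0.58, adjusted p = 0.0103), with KO replicate 2 well above KO replicate 1. Levels of these 4 did not overlap between genotypes, and both KO libraries lay above both WT libraries in 28.7% of all genes tested. Cxcl2, a neutrophil attractant, had 0, 4.36, 12.2 and 20.4 CPM (2.89 ± 1.08, adjusted p = 0.069), and Ccl25, the small intestinal homing chemokine, 415, 281, 211 and 305 CPM. Neither passed. Ccl20 missed the threshold without WT replicate 1, at an adjusted p of 0.11. Ccl20 missed it without WT replicate 2, at an adjusted p of 0.065. Cxcl9 missed it without KO replicate 1, at an adjusted p of 0.083. Cxcl9, Cxcl10, Cxcl16 and Ccl20 missed it without KO replicate 2, at adjusted p from 0.077 (Cxcl9) to 0.11 (Cxcl16). Cxcl9, Cxcl10, Cxcl16 and Ccl20 missed it by limma voom, at adjusted p from 0.053 (Cxcl16) to 0.36 (Ccl20). Ccl20 missed it with the leukocyte covariate, at an adjusted p of 0.104.

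The IL-22, IL-17 and STAT3 genes include cytokines made by lymphocytes and the epithelial response to them. In this list, 10 of 13 tested members rose and 3 did not pass, with a median of 3.21. Il22 had 0, 7.26, 742 and 210.1 CPM, a log2 fold change of 7.04 ± 1.08 (adjusted p = 0.0075). Its near-identical copy Iltifb had 0, 6, 509 and 133 reads, and the division of reads between them is uncertain. Il17f had no WT read and 198 and 34.4 CPM in the KO pair, a rise of at least 165-fold (adjusted p = 0.013). Il17a had 0, 0.484, 35.2 and 8.91 CPM, a ratio of 93.7 (95% counting interval 16.3 to 3756, adjusted p = 0.013). All 3 cytokine genes were highest in KO replicate 1. These transcripts are products of lymphoid cells, whose T cell and innate lymphoid markers summed to 90.4, 591, 433 and 274 CPM, and the part of cell numbers in the result was not tested. On the response side, Socs3, a feedback inhibitor induced by STAT3, had 12.8, 36.8, 415 and 431 CPM (4.10 ± 0.44, adjusted p = 6.3e-04). Stat3 itself had 59.4, 123, 266 and 299 CPM (1.63 ± 0.28, adjusted p = 0.0037), and Socs1 0.457, 1.94, 31.4 and 21.01 CPM (4.40 ± 0.70, adjusted p = 0.0024). The receptor chains Il17rc and Il22ra1 rose from 48.8 and 22.7 to 100.5 and 90.4 CPM (1.41 ± 0.29) and from 126 and 181 to 248 and 309 CPM (0.87 ± 0.23). In the list, 6, 11, 8 and 7 rose and 1, 0, 0 and 0 fell in the leave-one-out fits, and 7 rose and 0 fell with the leukocyte covariate. Il22, Il17f and Il17a missed the threshold without WT replicate 1, at adjusted p of 0.069, 0.13 and 0.065. Il17f missed it without WT replicate 2, at an adjusted p of 0.088. Il17a missed it without KO replicate 1, at an adjusted p of 0.13. Il22ra1 missed it without KO replicate 2, at an adjusted p of 0.13. Il22 missed it by DESeq2, at an adjusted p of 0.104. Il22, Il17f, Il17a and Socs1 missed it by limma voom, at adjusted p from 0.089 (Socs1) to 0.49 (Il17f). Il17f missed it with no filter on low counts, at an adjusted p of 0.052. Il17a and Il22ra1 missed it with the leukocyte covariate, at adjusted p of 0.0702 and 0.052.

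Interferon-induced genes, including the immunity-related GTPases that attack vacuoles of intracellular microbes, formed the longest inflammation list. Here, 14 of 24 tested members rose and 10 did not pass, with a median of 1.90, and 15, 23, 8 and 10 rose and 0 fell in each of the leave-one-out fits, and 14 rose and 0 fell with the leukocyte covariate. Both KO libraries lay above both WT libraries for 22 of the 24, against 28.7% of all genes. Igtp had 13.2, 19.8, 330.2 and 248 CPM (4.13 ± 0.32, adjusted p = 1.2e-04), Irgm1 46.1, 56.1, 275 and 202 CPM (2.22 ± 0.24, adjusted p = 4.2e-04) and Irgm2 6.85, 12.6, 96.6 and 85.3 CPM (3.23 ± 0.36, adjusted p = 4.8e-04). These 3 are GTPases, and every KO value lay far above every WT value. Iigp1, another, had 0, 4.84, 55.7 and 42.7 CPM (4.34 ± 0.69, adjusted p = 0.0032), and Gbp2, a guanylate-binding protein, 0, 6.29, 46.7 and 37.6 CPM (3.74 ± 0.82, adjusted p = 0.011). The transcription factor Irf8 rose from 78.98 and 86.1 to 337 and 322 CPM (1.99 ± 0.18, adjusted p = 2.0e-04). Isg15, a ubiquitin-like modifier, rose from 5.02 and 15.5 to 68.5 and 67.5 CPM (2.73 ± 0.43, adjusted p = 0.0023). Ifit1 (25.6, 100.2, 76.8 and 98.1 CPM) and Ifit3 (8.22, 16.5, 7.68 and 7.64 CPM), targets of type I interferon, did not pass, and their KO means lay below WT replicate 2. Iigp1 missed the threshold by limma voom, at an adjusted p of 0.099. Gbp2 missed the threshold without KO replicate 1 and without KO replicate 2, at adjusted p of 0.059 and 0.054.

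Genes of antigen presentation by MHC class I, which nearly all nucleated cells carry, rose together. In this list, 13 of 14 tested members rose and 1 did not pass, with a median of 1.59, and 13, 13, 10 and 9 rose and 0 fell in each of the leave-one-out fits, and 12 rose and 0 fell with the leukocyte covariate. The immunoproteasome subunits Psmb8 and Psmb9 had 53.4, 64.4, 278 and 246 CPM (2.15 ± 0.18, adjusted p = 1.5e-04) and 31.04, 33.9, 107 and 124 CPM (1.83 ± 0.17, adjusted p = 2.4e-04). The peptide transporter subunit Tap1 had 24.7, 55.2, 298 and 313 CPM (2.94 ± 0.31, adjusted p = 4.3e-04). No KO value of these overlapped a WT value. The heavy chain genes H2-K1 and H2-D1, which share sequence with other H2 genes so that counts are uncertain, had 305, 494, 979.6 and 1226 CPM (1.47 ± 0.25) and 87.2, 128, 405 and 441 CPM (1.98 ± 0.23). Their common light chain, B2m, had 363, 563, 1022 and 1458 CPM (1.42 ± 0.27, adjusted p = 0.0055). The 1 member that did not pass, H2-T3, stood at 98.2, 107, 118 and 103 CPM. B2m missed the threshold without KO replicate 2, at an adjusted p of 0.054.

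MHC class II genes mark professional antigen-presenting cells and can be induced in enterocytes by interferon-γ. Here, 3 of 8 tested members rose and 5 did not pass, with a median of 2.58, and 4, 8, 0 and 0 rose and 0 fell in each of the leave-one-out fits, and 1 rose and 0 fell with the leukocyte covariate. The median log2 ratio was 5.89 against WT replicate 1 and 1.66 against WT replicate 2. Cd74, the invariant chain, had 4.11, 155, 405 and 602 CPM (2.67 ± 1.16, adjusted p = 0.13), and H2-Aa and H2-Ab1 had 0.457, 82.8, 189 and 255 CPM (2.43 ± 1.24) and 1.83, 59.5, 173 and 231 CPM (2.73 ± 0.98). All 3 were higher in each KO library than in each WT library, and none passed, with the WT values far apart. Ciita, the master activator of the class, rose from 0.913 and 4.36 to 10.9 and 17.8 CPM (2.43 ± 0.69, adjusted p = 0.026), and the peptide-loading chains H2-DMa and H2-DMb2 from 0.457 and 10.2 to 33.9 and 42.7 CPM (2.85 ± 0.82) and from 0.457 and 2.42 to 13.4 and 8.91 CPM (2.92 ± 0.82). Macrophage and dendritic markers summed to 35.2, 235, 256 and 916 CPM over the same libraries. Ciita, H2-DMa and H2-DMb2 missed the threshold without KO replicate 1, at adjusted p of 0.057, 0.085 and 0.18. Ciita, H2-DMa and H2-DMb2 missed it without KO replicate 2, at adjusted p of 0.17, 0.13 and 0.11. H2-DMb2 missed it by DESeq2, at an adjusted p of 0.063. Ciita, H2-DMa and H2-DMb2 missed it by limma voom, at adjusted p of 0.14, 0.072 and 0.11. Ciita and H2-DMb2 missed it with the leukocyte covariate, at adjusted p of 0.097 and 0.11.

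**Figure D2:**
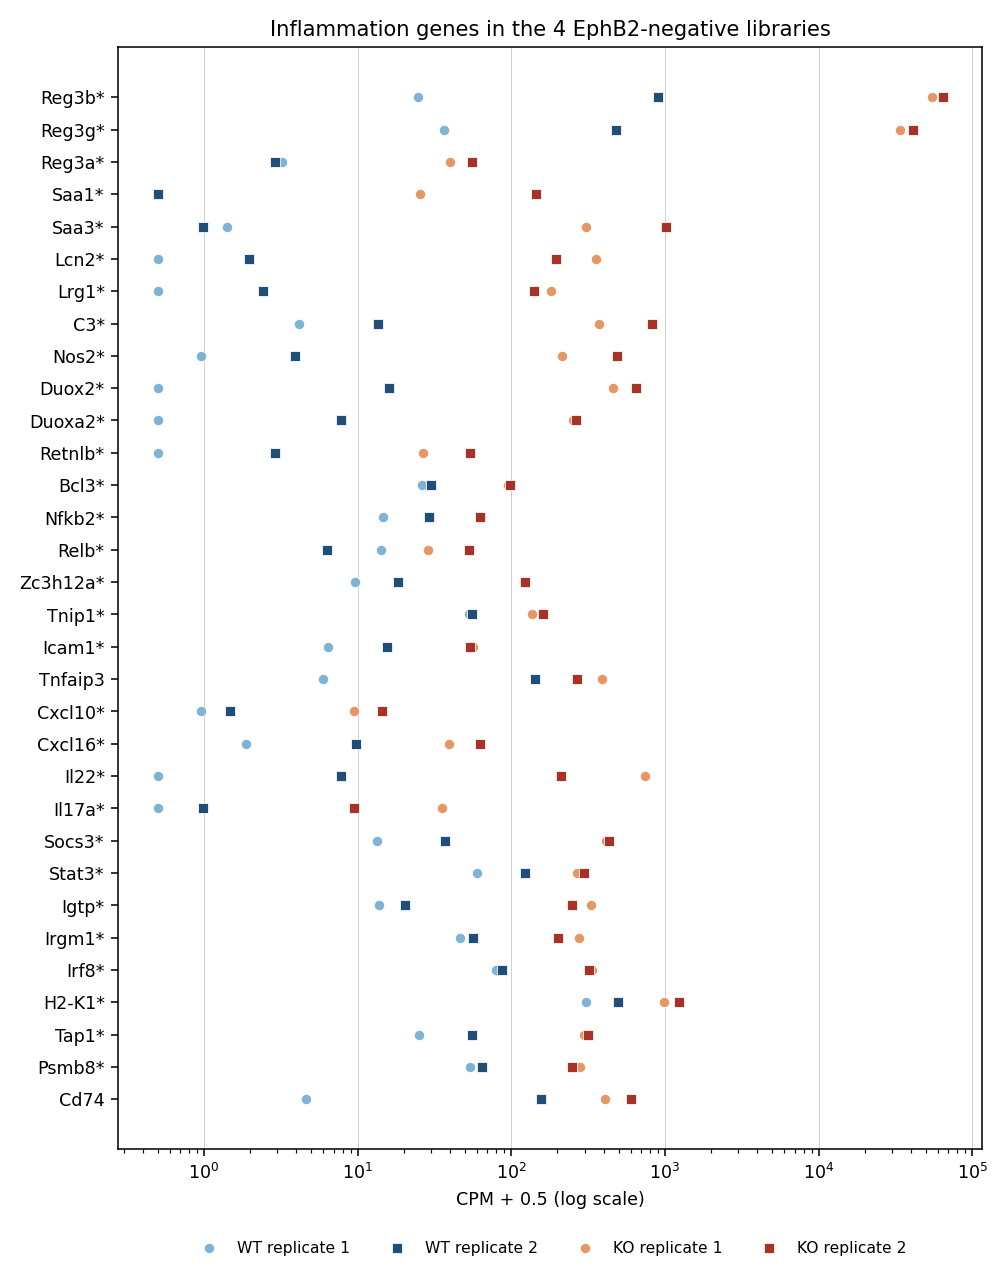
Levels of 32 inflammation genes in each EphB2-negative library, as CPM with 0.5 added on a log axis; blue symbols are the WT and red or orange symbols the KO replicates, and an asterisk marks genes that passed. Reg3b and Reg3g reach the highest levels, and the WT replicates lie far apart for Reg3b, Tnfaip3 and Cd74.

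Genes of fetal or regenerating epithelium were examined because such a state can follow injury or inflammation. In that list, 5 of 10 tested members rose and 5 did not pass, with a median of 1.20, and 5, 6, 3 and 2 rose and 1, 0, 0 and 0 fell in the leave-one-out fits, and 1 rose and 1 fell with the leukocyte covariate. Ly6a, the Sca-1 antigen, had 3.196, 5.81, 301 and 159.8 CPM (5.67 ± 0.85, adjusted p = 0.0059), a gene whose family members are similar in sequence. Il1rn, the interleukin-1 receptor antagonist, had 0.457, 1.45, 26.2 and 25.5 CPM (4.68 ± 0.62, adjusted p = 0.0014). Both stood many-fold above WT in each KO library. Anxa1, a membrane-binding annexin, rose from 5.94 and 9.19 to 14.1 and 33.7 CPM (1.66 ± 0.46), Plaur, the urokinase receptor, from 0.457 and 6.29 to 19.8 and 26.1 CPM (2.76 ± 0.78), and the hyaluronan receptor Cd44 from 36.1 and 40.2 to 67.8 and 57.3 CPM (0.71 ± 0.19), with adjusted p of 0.024, 0.026 and 0.021. Clu, a marker of revival stem cells, stood at 5.02, 6.29, 3.84 and 7.64 CPM and did not pass. Gja1, a gap junction gene, had at most 4 reads in any of the 4 libraries and was not tested. Ly6a missed the threshold without WT replicate 1, at an adjusted p of 0.091. Ly6a missed it without WT replicate 2, at an adjusted p of 0.055. Plaur and Cd44 missed it without KO replicate 1, at adjusted p of 0.082 and 0.13. Anxa1, Plaur and Cd44 missed it without KO replicate 2, at adjusted p of 0.25, 0.14 and 0.0604. Ly6a, Anxa1, Plaur and Cd44 missed it by limma voom, at adjusted p from 0.058 (Plaur) to 0.36 (Ly6a). Ly6a, Anxa1, Plaur and Cd44 missed it with the leukocyte covariate, at adjusted p from 0.058 (Anxa1) to 0.12 (Ly6a).

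Most crypt base genes fell or did not pass. Among crypt base stem cell genes, 1 of 16 tested members rose, 10 fell and 5 did not pass, with a median of -2.18. The median log2 ratio was -2.41 against WT replicate 1 and -1.002 against WT replicate 2, and 2, 0, 1 and 0 rose and 8, 13, 4 and 3 fell in the leave-one-out fits, and 1 rose and 7 fell with the leukocyte covariate. The level of the list summed to 2838, 908, 467 and 569.9 CPM, so WT replicate 1 held the most crypt transcript and both KO libraries the least. Olfm4, a secreted glycoprotein of stem cells, had 1450.0, 294, 85.7 and 124 CPM (-3.06 ± 0.70, adjusted p = 0.017), or -1.49 without WT replicate 1. Lgr5, the R-spondin receptor that marks these cells, had 42.0, 11.6, 2.56 and 6.37 CPM (-2.58 ± 0.68, adjusted p = 0.023). Both genes followed the same order of libraries as the sum. Sox9, a transcription factor of the crypt, had 81.7, 37.3, 5.12 and 3.82 CPM (-3.72 ± 0.47, adjusted p = 9.8e-04), or -3.04 without WT replicate 1. Slc12a2, a chloride cotransporter of crypt cells, had 442, 148, 33.3 and 46.5 CPM (-2.89 ± 0.46, adjusted p = 0.0035), or -1.89 without it. Rnf43, which removes Wnt receptors, and Nrn1 had 87.7, 43.1, 21.1 and 22.9 CPM (-1.57 ± 0.32) and 64.8, 104, 26.2 and 19.1 CPM (-1.89 ± 0.37). For these 4 genes both KO libraries lay under both WT libraries, as in 34.6% of all genes tested. Ascl2, the stem cell transcription factor, and Smoc2, a matrix protein, had 16.4, 2.42, 1.92 and 0.637 CPM (-2.83 ± 1.01, adjusted p = 0.062) and 70.3, 14.03, 3.199 and 12.1 CPM (-2.46 ± 0.83, adjusted p = 0.061). Neither passed. Aqp4, a water channel, was the member that rose, at 73.05, 50.3, 85.7 and 152 CPM. Ephb2, the sort marker, fell with the crypt genes, and its part in these falls was not tested. Olfm4, Lgr5 and Rnf43 missed the threshold without KO replicate 1, at adjusted p of 0.089, 0.13 and 0.053. Olfm4, Lgr5, Rnf43 and Nrn1 missed it without KO replicate 2, at adjusted p from 0.056 (Rnf43) to 0.0803 (Lgr5). Olfm4 and Lgr5 missed it by limma voom, at adjusted p of 0.098 and 0.054. Olfm4 missed it with no filter on low counts, at an adjusted p of 0.053. Lgr5 missed it with the leukocyte covariate, at an adjusted p of 0.11.

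Among DNA replication genes, 14 of 20 tested members fell and 6 did not pass, with a median of -1.32, and among mitosis genes, 12 of 20 tested members fell and 8 did not pass, with a median of -1.06. Of the replication genes, 0 rose in each and 11, 20, 6 and 3 fell in the leave-one-out fits, and 0 rose and 5 fell with the leukocyte covariate. Of the mitosis genes, 1, 0, 0 and 0 rose and 7, 20, 4 and 0 fell in the leave-one-out fits, and 1 rose and 4 fell with the leukocyte covariate. The replication list summed to 2968, 1223, 857 and 719.6 CPM and the mitosis list to 2563, 1062, 823 and 711 CPM, each highest in WT replicate 1. Mcm6 and Mcm2, subunits of the replicative helicase, had 390.3, 183, 74.9 and 67.5 CPM (-2.01 ± 0.31, adjusted p = 0.0022) and 157, 76.5, 44.1 and 36.3 CPM (-1.53 ± 0.30, adjusted p = 0.00604). Pole, the leading-strand polymerase, had 60.7, 29.04, 10.2 and 8.28 CPM (-2.27 ± 0.35). KO lay below WT in each pairing of libraries. Of the mitotic genes, Top2a, which untangles chromosomes, had 399, 199.9, 122 and 94.2 CPM (-1.47 ± 0.29, adjusted p = 0.0065), and the spindle motor Kif11 137, 56.6, 33.3 and 24.2 CPM (-1.75 ± 0.38, adjusted p = 0.0098). Cenpf and Tpx2, of the kinetochore and spindle, fell from 58.9 and 25.2 to 12.2 and 10.2 CPM (-1.91 ± 0.40) and from 89.9 and 45.01 to 28.2 and 26.1 CPM (-1.32 ± 0.29). The log2 fold changes without WT replicate 1 of Mcm6, Pole, Top2a and Kif11 were -1.36, -1.64, -0.88 and -0.98. Tpx2 missed the threshold without KO replicate 1, at an adjusted p of 0.052. Mcm2, Top2a, Kif11, Cenpf and Tpx2 missed it without KO replicate 2, at adjusted p from 0.064 (Mcm2) to 0.084 (Kif11). Tpx2 missed it with the leukocyte covariate, at an adjusted p of 0.057.

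The absorptive programme of the enterocyte was mixed. For fat handling, 6 of 22 tested members rose, 1 fell and 15 did not pass, with a median of 0.81, and 6, 15, 2 and 1 rose and 2, 1, 0 and 0 fell in the leave-one-out fits, and 2 rose and 2 fell with the leukocyte covariate. Dgat1 and Mogat2, which rebuild triglyceride from absorbed fat, had 216, 229, 581 and 723 CPM (1.55 ± 0.19, adjusted p = 6.8e-04) and 184, 336, 576 and 653 CPM (1.24 ± 0.31, adjusted p = 0.018). Pla2g12b, which helps to load lipoproteins, rose from 40.6 and 56.6 to 108 and 108 CPM (1.15 ± 0.31). Lrat, which stores retinol as esters, was the member that fell, at 16.9, 38.7, 5.12 and 4.46 CPM (-2.52 ± 0.59, adjusted p = 0.013). Abundant members of the list did not pass. Apoa1, a lipoprotein component, had 782, 3194, 4908 and 7059 CPM (1.59 ± 0.73, adjusted p = 0.14), Mttp, the lipid loader of chylomicrons, 1339, 2639, 2791 and 4383 CPM (0.85 ± 0.35, adjusted p = 0.091), and Fabp2, a fatty acid carrier, 1653, 3003, 731 and 1449 CPM (-1.09 ± 0.40, adjusted p = 0.068). Apoa1 and Mttp were lowest in WT replicate 1, and Fabp2 was highest in WT replicate 2. Mogat2, Pla2g12b and Lrat missed the threshold without KO replicate 1, at adjusted p of 0.056, 0.087 and 0.066. Mogat2, Pla2g12b and Lrat missed it without KO replicate 2, at adjusted p of 0.099, 0.103 and 0.093. Pla2g12b missed it by limma voom, at an adjusted p of 0.054. Mogat2 missed it with the leukocyte covariate, at an adjusted p of 0.062.

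Among brush border hydrolases, 4 of 18 tested members rose and 14 did not pass, with a median of 0.25, and 4, 6, 4 and 2 rose and 2, 0, 0 and 1 fell in the leave-one-out fits, and 3 rose and 1 fell with the leukocyte covariate. Ggt1, which cleaves glutathione, had 9.59, 13.1, 466 and 499 CPM (5.41 ± 0.36, adjusted p = 6.6e-05), and its WT pair was close. Mgam, a starch-digesting glucosidase, had 392, 478, 1300.2 and 1622 CPM (1.75 ± 0.18, adjusted p = 3.5e-04). Ace and Mep1b, peptidases, rose from 24.7 and 149 to 579.7 and 1104 CPM (3.28 ± 0.83) and from 71.7 and 256 to 612 and 960.3 CPM (2.27 ± 0.52). In each of the 4, both KO libraries exceeded both WT libraries, as in 28.7% of all genes tested. Lct, the lactase of suckling animals, had 216, 1095, 58.9 and 197 CPM (-2.35 ± 0.91, adjusted p = 0.094), and sucrase-isomaltase, Sis, 41.1, 206, 26.2 and 59.9 CPM. WT replicate 2 was the highest library for both, and neither passed. Ace missed the threshold without KO replicate 1, without KO replicate 2, with no filter on low counts and with the leukocyte covariate, at adjusted p of 0.052, 0.12, 0.0701 and 0.11. Mep1b missed the threshold without KO replicate 2, at an adjusted p of 0.086.

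Among nutrient transporters, 9 of 19 tested members rose and 10 did not pass, with a median of 1.19, and 9, 18, 7 and 4 rose and 1, 0, 0 and 0 fell in the leave-one-out fits, and 5 rose and 0 fell with the leukocyte covariate. Slc13a1, a sulfate transporter, had 3.196, 1.94, 40.3 and 77.7 CPM (4.48 ± 0.55, adjusted p = 7.4e-04), and Slc5a1, the sodium-glucose cotransporter, 174, 364, 1031 and 1599.6 CPM (2.29 ± 0.34, adjusted p = 0.0019). Slc2a5, which carries fructose, and Slc51b, of the bile acid exporter, rose from 15.98 and 35.3 to 85.7 and 131 CPM (2.08 ± 0.40) and from 13.2 and 41.1 to 139 and 165 CPM (2.49 ± 0.43). The WT order was not shared by all, since Slc13a1 was higher in WT replicate 1 and the other 3 in WT replicate 2. In the structural genes of the brush border, 10 of 13 tested members rose and 3 did not pass, with a median of 1.30, and 8, 13, 6 and 3 rose and 0 fell in each of the leave-one-out fits, and 4 rose and 0 fell with the leukocyte covariate. Krt20, a keratin of mature villus cells, had 59.4, 238, 1212 and 1538 CPM (3.21 ± 0.54, adjusted p = 0.0053), and Myo1a, the brush border myosin, 375, 539, 1349 and 1638 CPM (1.71 ± 0.20, adjusted p = 5.7e-04). Plec, a cytoskeletal linker, rose from 79.9 and 174 to 389.7 and 516 CPM (1.83 ± 0.31), Cdhr5, an intermicrovillar cadherin, from 284 and 818 to 1253 and 1809.7 CPM (1.48 ± 0.43), Slc9a3r1, a scaffold, from 212 and 455 to 726 and 922 CPM (1.30 ± 0.30), and villin, Vil1, from 998 and 1411 to 1733 and 1985 CPM (0.63 ± 0.20). WT replicate 1 was the lowest library for each of these 6. Vil1 missed the threshold without WT replicate 1, at an adjusted p of 0.058. Cdhr5 and Vil1 missed it without KO replicate 1, at adjusted p of 0.059 and 0.095. Slc2a5, Cdhr5, Slc9a3r1 and Vil1 missed it without KO replicate 2, at adjusted p from 0.062 (Slc2a5) to 0.22 (Vil1). Vil1 missed it by limma voom, at an adjusted p of 0.061. Cdhr5 missed it with no filter on low counts, at an adjusted p of 0.062. Cdhr5 and Vil1 missed it with the leukocyte covariate, at adjusted p of 0.097 and 0.15.

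Arginine synthesis is a task of the suckling gut, and its enzyme genes Cps1, Otc and Oat fell. Ass1, also an enzyme gene of arginine synthesis, had no read in any of the 9 libraries and was not tested. In the list of suckling regulators and arginine synthesis, 2 of 10 tested members rose, 4 fell and 4 did not pass, and 2, 4, 1 and 0 rose and 4, 4, 3 and 3 fell in the leave-one-out fits, and 1 rose and 4 fell with the leukocyte covariate. Cps1 and Otc, the first steps of citrulline synthesis, had 6198, 3345, 1067 and 1232 CPM (-2.05 ± 0.31, adjusted p = 0.0018) and 206, 160.2, 46.1 and 66.2 CPM (-1.70 ± 0.25, adjusted p = 0.0018). Oat, which feeds ornithine into the pathway, had 3706, 3041, 903 and 1109 CPM (-1.75 ± 0.20, adjusted p = 5.6e-04). In all 3, each KO library lay far below each WT library, and both KO libraries lay below both WT libraries in 34.6% of all genes tested. Nags, which makes the activator of Cps1, moved the other way, from 54.3 and 45.5 to 82.5 and 104 CPM (0.90 ± 0.20, adjusted p = 0.011). In the list of suckling endocytosis, by which neonatal enterocytes take up whole protein, 3 of 13 tested members rose, 1 fell and 9 did not pass, and 2, 8, 2 and 0 rose and 3, 1, 0 and 0 fell in the leave-one-out fits, and 2 rose and 2 fell with the leukocyte covariate. Cubn, the endocytic receptor cubilin, had 31.5, 151, 3.84 and 7.64 CPM (-3.98 ± 0.89, adjusted p = 0.015). Clec2h, a lectin of villus enterocytes, had 55.7, 299, 1232 and 1752 CPM (3.08 ± 0.69, adjusted p = 0.017), while Nostrin had 44.7, 55.2, 79.98 and 112 CPM (0.94 ± 0.22) and rose. Fcgrt, the receptor for maternal antibody, stood at 302, 723, 216 and 315 CPM and did not pass. Cubn missed the threshold without KO replicate 1, at an adjusted p of 0.087. Nags, Cubn, Clec2h and Nostrin missed it without KO replicate 2, at adjusted p from 0.078 (Clec2h) to 0.12 (Nostrin). Nags and Nostrin missed it by limma voom, at adjusted p of 0.059 and 0.068.

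In fatty acid oxidation and ketogenesis, 2 of 16 tested members rose, 7 fell and 7 did not pass, with a median of -0.38, and 2, 3, 2 and 2 rose and 6, 7, 3 and 5 fell in the leave-one-out fits, and 2 rose and 6 fell with the leukocyte covariate. Acat1, which works in ketone body synthesis, had 530.0, 448, 171 and 167 CPM (-1.53 ± 0.17, adjusted p = 4.3e-04). Angptl4, an inhibitor of lipoprotein lipase, had 52.96, 16.9, 3.84 and 1.91 CPM (-3.58 ± 0.61, adjusted p = 0.0033). Acadl, a long-chain acyl-CoA dehydrogenase, moved the other way, at 518, 481, 942 and 1149 CPM (1.07 ± 0.18, adjusted p = 0.0029). None of these 3 had overlapping genotypes, which was also so for 63.2% of all genes tested. Among enterocyte transcription factors, 3 of 17 tested members rose, 1 fell and 13 did not pass, and 7, 5, 2 and 0 rose and 0, 1, 0 and 0 fell in the leave-one-out fits, and 5 rose and 0 fell with the leukocyte covariate. Creb3l3, a fasting-responsive factor, had 422, 545, 1101 and 1172 CPM (1.23 ± 0.28, adjusted p = 0.011), and Elf3 388, 343, 577 and 628 CPM (0.72 ± 0.16). Hnf4a (912, 678, 871 and 934 CPM) and Cdx2 (235, 181, 256 and 263 CPM), regulators of intestinal identity, did not pass. The share of these transcription factors that rose, 17.6%, was near the 13.7% of all genes tested. Creb3l3 missed the threshold without KO replicate 2, at an adjusted p of 0.072. Elf3 missed the threshold without KO replicate 2, at an adjusted p of 0.087.

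Housekeeping programmes gave small shifts. In cholesterol synthesis, 3 of 14 tested members rose and 11 did not pass, and 2, 9, 2 and 1 rose and 0 fell in each of the leave-one-out fits, and 2 rose and 0 fell with the leukocyte covariate. Fdps had 75.3, 110.3, 204 and 231 CPM (1.23 ± 0.20, adjusted p = 0.0026) and Sqle 51.6, 69.2, 94.7 and 124 CPM (0.86 ± 0.20), both enzymes of the sterol pathway. In oxidative phosphorylation, 8 of 20 tested members rose and 12 did not pass, with a median of 0.51, and 18, 8, 2 and 0 rose and 0 fell in each of the leave-one-out fits, and 18 rose and 0 fell with the leukocyte covariate. Uqcrc1, Cox5a, Cox4i1 and Ndufb8, respiratory chain subunits, had log2 fold changes of 1.002 ± 0.21, 0.92 ± 0.19, 0.79 ± 0.19 and 0.72 ± 0.20. Their levels were 523, 326, 817 and 884 CPM, 286, 196, 442 and 474 CPM, 585, 403, 847 and 858 CPM and 146, 96.3, 196 and 204 CPM. WT replicate 2 was the lowest library for each. For cytosolic ribosomal protein genes, 0 of 20 passed by edgeR's quasi-likelihood test (1 at an unadjusted p under 0.05), 0 by DESeq2 and 0 by limma voom, with median log2 ratios of -0.54 against WT replicate 1 and 0.34 against WT replicate 2, and 9, 0, 0 and 0 rose and 0, 16, 0 and 0 fell in the leave-one-out fits, and 6 rose and 0 fell with the leukocyte covariate. With DESeq2 size factors in place of TMM, 15 oxidative phosphorylation genes rose. Cox4i1 and Ndufb8 missed the threshold without KO replicate 1, at adjusted p of 0.065 and 0.084. Sqle, Uqcrc1, Cox5a, Cox4i1 and Ndufb8 missed it without KO replicate 2, at adjusted p from 0.057 (Cox5a) to 0.12 (Ndufb8). Sqle missed it by limma voom, at an adjusted p of 0.065.

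**Figure D3:**
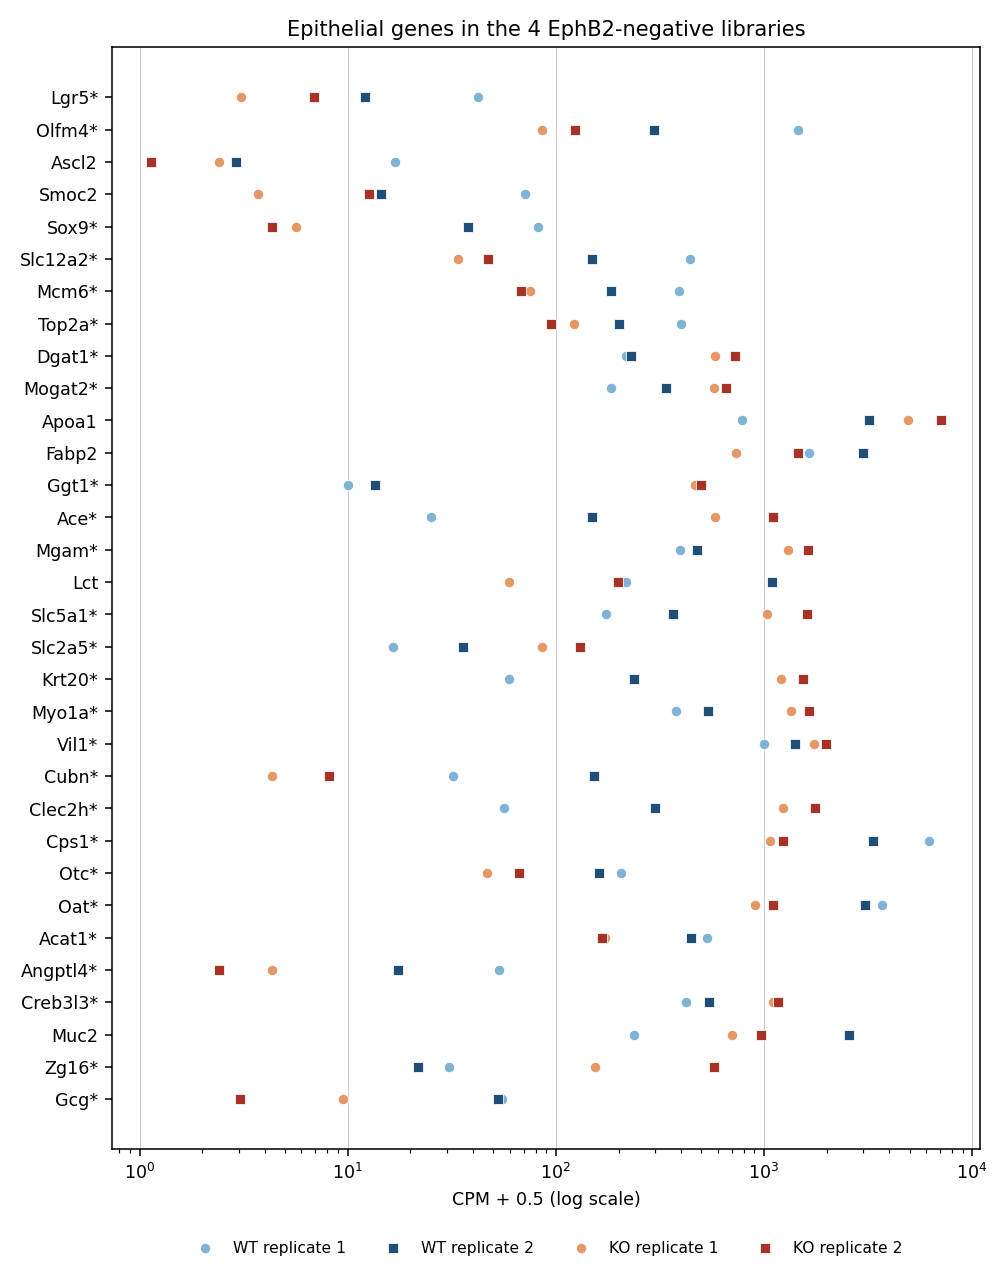
Levels of 32 epithelial genes in each EphB2-negative library, as CPM with 0.5 added on a log axis; blue symbols are the WT and red or orange symbols the KO replicates, and an asterisk marks genes that passed. Crypt genes at the top run from WT replicate 1 down to KO, and Cps1, Otc, Oat and Acat1 show 2 separate groups.

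The goblet and Paneth cell lists changed direction with the WT library they were set against. Median log2 ratios of the Paneth list were 1.51 against WT replicate 1 and -1.59 against WT replicate 2. Those of enteroendocrine genes were -0.52 and -1.07, and those of tuft cell genes 2.84 and 1.21, in the same order. Among goblet cell genes, 2 of 12 tested members rose and 10 did not pass, with a median log2 ratio of 0.96 against WT replicate 1 and -1.66 against WT replicate 2. Of this list, 1, 4, 2 and 1 rose and 8, 0, 0 and 0 fell in the leave-one-out fits, and 1 rose and 5 fell with the leukocyte covariate. Muc2, the main secreted mucin, had 237, 2562, 704 and 962 CPM, and Agr2, a mucin-folding protein, 138, 1059.8, 138 and 219.7 CPM. Neither passed, and both had their highest level in WT replicate 2. Muc13, a membrane mucin of enterocytes as well, had 1793, 2660.2, 5362 and 7183 CPM (1.49 ± 0.26, adjusted p = 0.0033), and Zg16, a lectin that aggregates bacteria, 30.1, 21.3, 153 and 576 CPM (3.82 ± 0.81, adjusted p = 0.015). Among Paneth cell genes, 1 of 8 tested members rose and 7 did not pass, and 0, 2, 0 and 0 rose and 3, 0, 0 and 0 fell in the leave-one-out fits, and 0 rose and 2 fell with the leukocyte covariate. The member that rose was Mmp7, which activates defensins, at 9.13, 23.2, 37.8 and 46.5 CPM (1.39 ± 0.43, adjusted p = 0.038). Among enteroendocrine genes, 3 of 16 tested members fell and 13 did not pass, with a median of -1.09, and 1, 1, 0 and 0 rose and 8, 3, 1 and 1 fell in the leave-one-out fits, and 0 rose and 8 fell with the leukocyte covariate. Gcg, which encodes the GLP-1 precursor, had 54.8, 52.3, 8.96 and 2.55 CPM (-3.20 ± 0.37, adjusted p = 5.6e-04), and the incretin Gip 592, 565, 182 and 115 CPM (-1.96 ± 0.50, adjusted p = 0.023). Neurod1, a factor of that lineage, had 10.04, 32.9, 4.48 and 7.64 CPM (-1.81 ± 0.61), and the granule protein Chgb 1089.8, 2917, 921 and 713 CPM (-1.29 ± 0.45, adjusted p = 0.0603), which did not pass. Gcg and Gip were alike in the WT pair, whereas Neurod1 and Chgb were higher in WT replicate 2. For tuft cell genes, 0 of 3 passed by edgeR's quasi-likelihood test (2 at an unadjusted p under 0.05), 0 by DESeq2 and 0 by limma voom, and 0, 3, 0 and 0 rose and 0 fell in each of the leave-one-out fits, and 0 rose and 0 fell with the leukocyte covariate. Zg16, Mmp7 and Gip missed the threshold without WT replicate 1, at adjusted p of 0.091, 0.14 and 0.093. Zg16, Gip and Neurod1 missed it without WT replicate 2, at adjusted p of 0.076, 0.058 and 0.299. Mmp7, Gip and Neurod1 missed it without KO replicate 1, at adjusted p of 0.088, 0.059 and 0.21. Zg16, Mmp7, Gip and Neurod1 missed it without KO replicate 2, at adjusted p from 0.056 (Zg16) to 0.17 (Mmp7). Neurod1 missed it by DESeq2, at an adjusted p of 0.11. Zg16, Mmp7, Gip and Neurod1 missed it by limma voom, at adjusted p from 0.073 (Gip) to 0.25 (Mmp7). Neurod1 missed it with DESeq2 size factors, at an adjusted p of 0.059. Gip missed it with no filter on low counts, at an adjusted p of 0.056. Zg16, Mmp7 and Gip missed it with the leukocyte covariate, at adjusted p of 0.089, 0.24 and 0.12.

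Markers of other cell types were also examined. Whether they reflect cells that passed the gate or RNA per cell cannot be told apart here. Pan-epithelial genes (Epcam, keratins, cadherin) summed to 9192, 6119, 7895 and 8427 CPM, and 2 of 8 rose: Cldn3, a tight junction protein, by 0.74 ± 0.17 and Elf3. Of these 8, 5, 2, 1 and 0 rose and 0, 2, 0 and 0 fell in the leave-one-out fits, and 5 rose and 0 fell with the leukocyte covariate. Pan-leukocyte markers had a median log2 ratio of 3.96 against WT replicate 1 and 0.65 against WT replicate 2, and 0 of 11 passed by edgeR's quasi-likelihood test (2 at an unadjusted p under 0.05), 0 by DESeq2 and 3 by limma voom. Of these markers, 5, 11, 0 and 0 rose and 0 fell in each of the leave-one-out fits. T cell and innate lymphoid markers had median log2 ratios of 3.97 and -0.93, and 0 of 10 passed by edgeR's quasi-likelihood test (0 at an unadjusted p under 0.05), 0 by DESeq2 and 1 by limma voom. Of the latter, 1, 9, 0 and 0 rose and 2, 0, 0 and 0 fell in the leave-one-out fits, and 0 rose and 6 fell with the leukocyte covariate. Cytotoxic markers summed to 17.3, 501, 1058 and 388 CPM, and 0 of 4 passed by edgeR's quasi-likelihood test (0 at an unadjusted p under 0.05), 0 by DESeq2 and 0 by limma voom, whereas 0, 3, 0 and 0 rose and 0 fell in each of the leave-one-out fits, and 0 rose and 2 fell with the leukocyte covariate. In these lists KO lay much farther from WT replicate 1 than from WT replicate 2. Among neutrophil markers, 4 of 7 tested members rose and 3 did not pass, with a sum of 16.9, 63.9, 145 and 717 CPM that was highest in KO replicate 2. Of the neutrophil list, 2, 3, 6 and 1 rose and 0 fell in each of the leave-one-out fits, and 1 rose and 0 fell with the leukocyte covariate. S100a9 and S100a8, calprotectin subunits, had 0, 0.968, 30.7 and 178 CPM and 0, 0.484, 8.32 and 70.7 CPM. Their ratios were 223 (95% counting interval 61.2 to 1848, adjusted p = 0.036) and 168 (95% counting interval 29.7 to 6707, adjusted p = 0.035). Ltf, lactoferrin, which milk glands and epithelia also make, had 1.37, 3.87, 11.5 and 44.6 CPM (3.40 ± 0.78), and the granule protein Ngp 0, 1.45, 8.32 and 33.7 CPM, a ratio of 29.9 (95% counting interval 9.79 to 149, adjusted p = 0.028). For markers of macrophages and dendritic cells, 0 of 10 passed by edgeR's quasi-likelihood test (4 at an unadjusted p under 0.05), 1 by DESeq2 and 0 by limma voom, with the complement gene C1qa at 1.83, 13.6, 28.2 and 96.8 CPM, and 0, 5, 1 and 0 rose and 0 fell in each of the leave-one-out fits, and 0 rose and 0 fell with the leukocyte covariate. In mast cell, B cell and stromal lists, 1 member each rose: Tpsab1, a tryptase with close copies (1.37, 2.42, 19.2 and 12.7 CPM, 3.04 ± 0.71), Xbp1, which secretory epithelium also expresses (198, 276, 472 and 523 CPM, 1.07 ± 0.19), and Acta2, smooth muscle actin (6.39, 6.29, 19.2 and 16.6 CPM, 1.49 ± 0.40). Of mast cell genes, 1, 6, 0 and 0 rose and 3, 0, 0 and 0 fell in the leave-one-out fits, and 1 rose and 3 fell with the leukocyte covariate. Of B and plasma cell genes, 1, 4, 1 and 1 rose and 0 fell in each of the leave-one-out fits, and 1 rose and 0 fell with the leukocyte covariate. Of stromal and vessel genes, 2, 3, 0 and 0 rose and 0 fell in each of the leave-one-out fits, and 0 rose and 0 fell with the leukocyte covariate. The glial gene S100b had 5.48 and 5.81 CPM in WT and no KO read, at least 5.89-fold lower (adjusted p = 0.022). S100a9, S100a8 and Ngp missed the threshold without WT replicate 1, at adjusted p of 0.44, 0.49 and 0.093. S100a9 and S100a8 missed it without WT replicate 2, at adjusted p of 0.36 and 0.403. Cldn3, Tpsab1, Acta2 and S100b missed it without KO replicate 1, at adjusted p from 0.064 (Cldn3) to 0.17 (Tpsab1). Cldn3, Ltf, Ngp, Tpsab1, Acta2 and S100b missed it without KO replicate 2, at adjusted p from 0.066 (Cldn3) to 0.26 (Ngp). S100a9, S100a8, Ngp, Acta2 and S100b missed it by DESeq2, at adjusted p from 0.055 (Acta2) to 0.49 (Ngp). S100a9, S100a8, Ltf, Ngp, Tpsab1 and Acta2 missed it by limma voom, at adjusted p from 0.066 (Tpsab1) to 0.55 (S100a9). S100a9 and S100a8 missed it with no filter on low counts, at adjusted p of 0.15 and 0.0997. S100a9, S100a8, Ngp and Acta2 missed it with the leukocyte covariate, at adjusted p from 0.059 (Acta2) to 0.38 (S100a9).

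**Figure D4:**
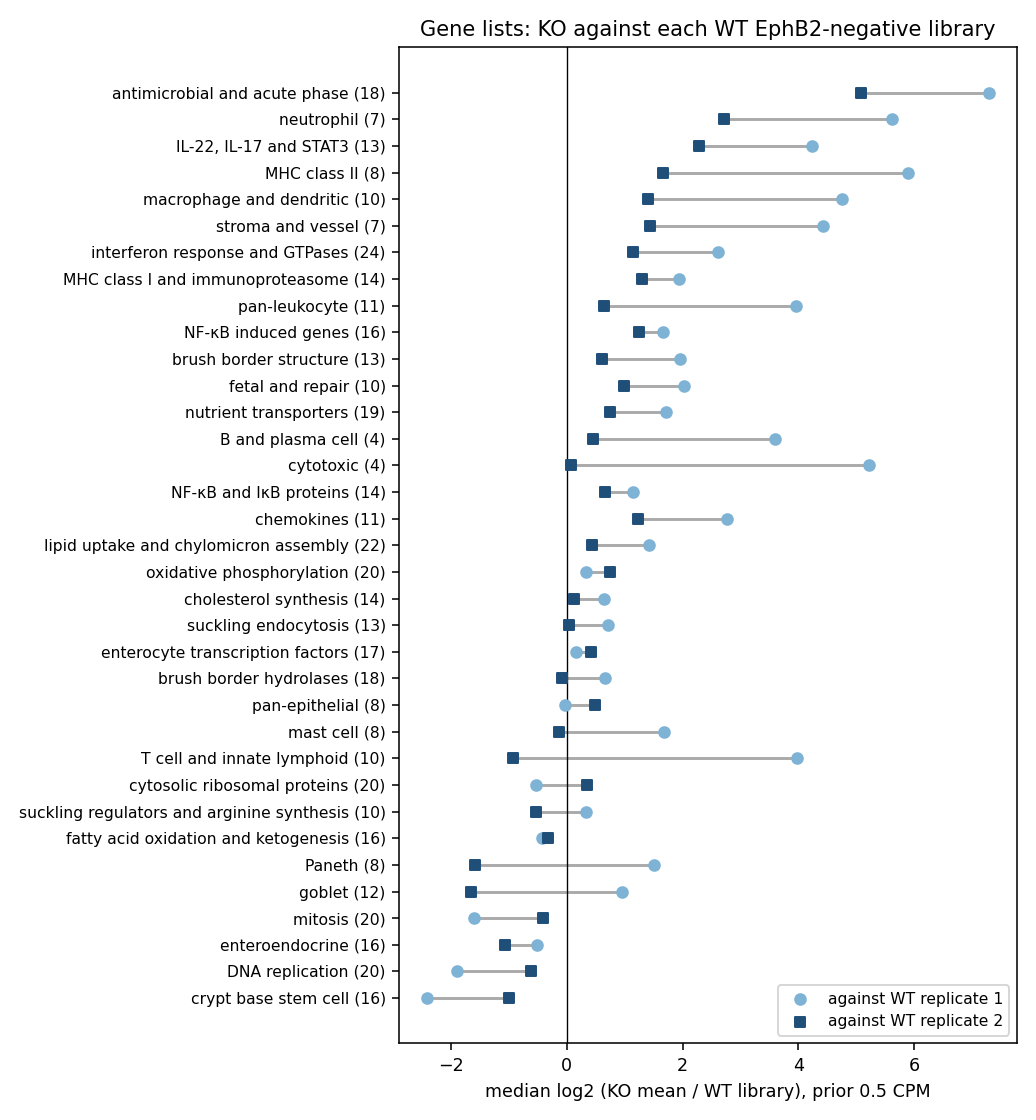
Median log2 ratio of the KO mean to WT replicate 1 (light circles) and to WT replicate 2 (dark squares) over the tested members of each gene list (number in brackets), with a prior of 0.5 CPM. Antimicrobial genes lie far to the right of 0 against both WT libraries and crypt genes to the left, while goblet, Paneth and T cell lists straddle 0.

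Genes on which the WT pair gave opposite answers were listed separately, from 1227 genes with at least 50 CPM in a WT library and log2 ratios of opposite sign. Those most above WT replicate 1 and below WT replicate 2 were Itln1 (10.5, 3096, 319.9 and 10.8 CPM), a Paneth and goblet cell lectin, Mptx1 (27.8, 1455, 74.2 and 5.09 CPM) and Mptx2 (4.57, 407, 29.4 and 3.82 CPM), mucosal pentraxins, and the lymphocyte genes Cd7 (0.457, 118, 69.1 and 14.01 CPM), Cd3g (0.457, 67.3, 24.3 and 15.3 CPM) and Gimap4 (2.28, 122, 107 and 58.6 CPM). They are genes of secretory and lymphoid cells. Those most below WT replicate 1 and above WT replicate 2 were the Y-linked Eif2s3y (85.4, 0.968, 72.9 and 59.2 CPM) and digestive protease genes such as Cela3b (92.7, 2.42, 0.6398 and 10.2 CPM) and Prss3 (57.5, 1.45, 1.92 and 6.37 CPM), of a trypsin family with near-identical copies. None of these 9 genes passed as different between KO and WT. That follows from how they were chosen, since no called gene had log2 ratios of opposite sign.

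The genotype effect in EphB2-negative cells was also set against that in EphB2-positive cells, by the difference of the 2 log2 fold changes in 1 fit. The difference passed for 1430 genes (12.4%), of which 673 were higher and 757 lower in the EphB2-negative comparison. Without KO replicate 2 it passed for 40, and without WT replicate 1 for 2339. In EphB2-positive cells 812 genes rose and 934 fell, together 15.1% of the genes tested. The 2 comparisons share no library, and 413 genes rose in both, 337 fell in both and 121 were called in opposite directions. Fat-absorption genes were among the last: Dgat1 rose by 1.55 ± 0.19 here and had a log2 fold change of -1.11 in EphB2-positive cells, a difference of 2.66 ± 0.26, and Creb3l3 had 1.23 ± 0.28 and -2.14, a difference of 3.38 ± 0.41. Mogat2 followed the same pattern, with 1.24 ± 0.31 and -1.29. For crypt genes, Sox9 had -3.72 ± 0.47 here and -0.66 there, a difference of -3.06 ± 0.58, and Slc12a2 -2.89 ± 0.46 and -0.11, a difference of -2.77 ± 0.59. Ephb2 itself had -1.56 ± 0.27 and 0.24, a difference of -1.80 ± 0.35. The difference did not pass for Reg3b (-2.44 ± 1.68), Reg3g (-1.91 ± 1.26), Igtp (-0.79 ± 0.51) or Psmb8 (-0.12 ± 0.24), each called higher in KO in both sorts. Of the 27 named genes whose difference passed, 26 passed without WT replicate 1, 26 without WT replicate 2, 12 without KO replicate 1 and 2 (Dgat1 and Creb3l3) without KO replicate 2. With both sorts of a genotype and replicate number treated as 1 unit, 24 passed.

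**Figure D5:**
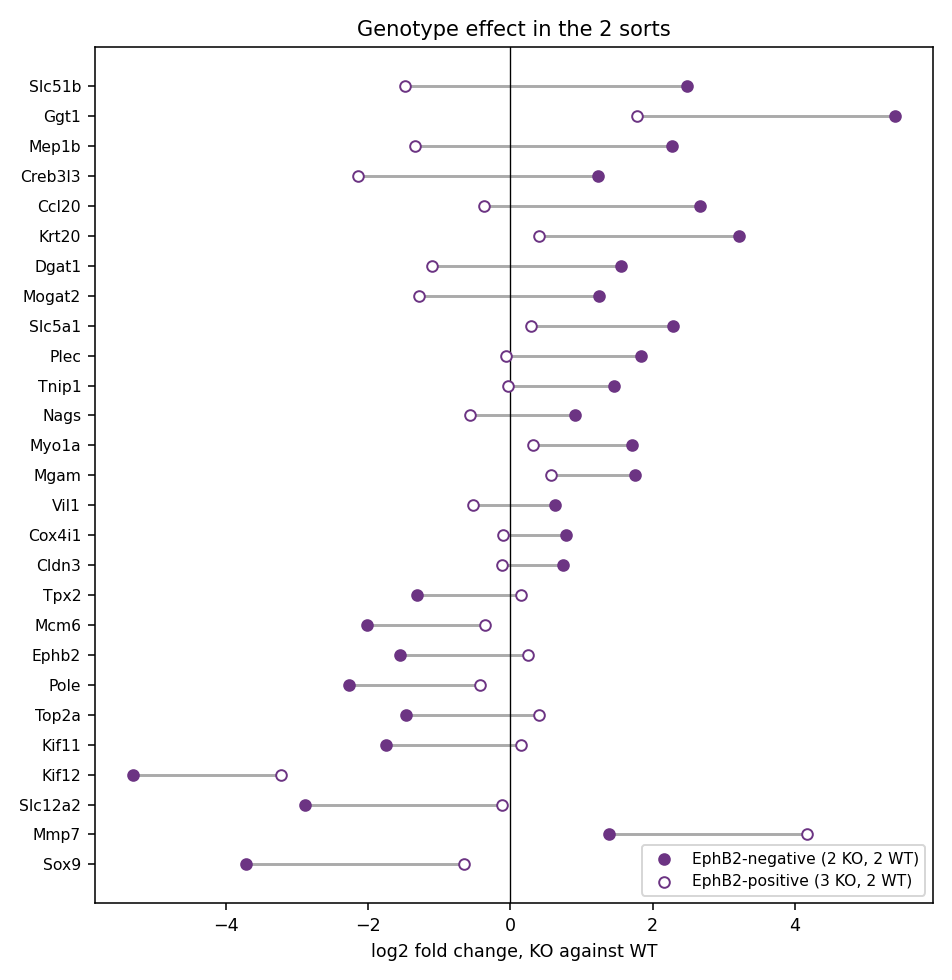
Log2 fold change of KO against WT in EphB2-negative cells (filled circles; 2 KO, 2 WT libraries) and EphB2-positive cells (open circles; 3 KO, 2 WT libraries) for the 27 named genes whose difference between sorts passed. Brush border and fat-absorption genes lie further right in EphB2-negative cells, and crypt and replication genes further left.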

How the data were processed

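Per the labels' protocols, cDNA from poly(A) RNA of sorted cells went through long-distance PCR and Covaris shearing before Illumina sequencing. The deposited files hold whole-number counts per gene, made by the authors; the submitters' processing notes list mm10, CASAVA 1.4, FastQC, Bowtie2, HTSeq and DESeq2, with no role or order. The annotation and strand setting were not given in the sources used here, and reads of overlapping or near-identical genes may be split by an unknown rule. Each table lists 24421 symbols. Its 5 summary lines were left out of totals and of the fit (reads in no gene were 11.0 to 14.7% in the EphB2-negative libraries).

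All 9 libraries were fitted with edgeR 4.0.16 in R 4.3.3 (limma 3.58.1, DESeq2 1.42.0 for alternatives): filterByExpr by group kept 11577 genes, TMM scaling, 4 group means, 5 residual degrees of freedom, robust quasi-likelihood F test, two-sided, Benjamini-Hochberg adjustment over all genes tested, called at an adjusted p under 0.05. Standard errors were taken as the size of the log2 fold change divided by the root of F. Folds against a group with 0 reads are bounds against 3 reads over that group, and where a group had 1 to 3 reads the ratio has its 95% counting interval. The fit was run on simulated data with 1 spread for all genes, in which the WT replicates differed by noise only. That run does not cover a WT pair as unlike as the one here. Named genes were Nfkbia, Ephb2, key genes and the first 4 called by p of 37 gene lists (540 of 549 genes are in the files), the 15 highest and 15 lowest called genes with at least 10 CPM and no overlap of the genotypes, and the 6 genes each way with the largest disagreement between the WT libraries. Some were left out where only statistics would be listed, and members given by library values alone were chosen after their values were seen. A few named genes are not reported here. The genes, lists and tests were chosen with earlier results of these data known. Alternatives were another normalization, other filters, DESeq2, limma voom, fewer libraries, a leukocyte covariate, a replicate block and each library left out. Positions are those of GENCODE vM21 (GRCm38, the same as mm10), and promoter sequences those of RefSeq (GRCm38.p6).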

Additional observations from a re-analysis of the deposited data

Results flagged for a closer look

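In 27 of the 156 named genes, the KO against WT difference in EphB2-negative cells was not the same as in EphB2-positive cells, by a test of the difference itself (edgeR's quasi-likelihood test, adjusted over all genes tested). Over all genes this test passed for 12.4%. Many of the named genes were chosen because they were called in the EphB2-negative comparison, and 142 of the 156 were called there. The difference reuses those libraries, so the share among named genes cannot be set against the share over all genes. Values are the log2 fold change in EphB2-negative cells minus that in EphB2-positive cells.

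In 17 genes the EphB2-negative value was the higher. Among fat-absorption genes and their regulator, the difference was 2.66 for Dgat1, 2.53 for Mogat2 and 3.38 for Creb3l3. It was 3.63 for Ggt1, 3.61 for Mep1b and 1.17 for Mgam, all brush border enzymes, and 3.97 for Slc51b and 2.00 for Slc5a1, both transporters. Structural genes of the villus cell were Krt20 at 2.80, Plec at 1.89, Myo1a at 1.39 and Vil1 at 1.15, and the junction gene Cldn3 stood at 0.86. The remaining values were 3.03 for the chemokine Ccl20, 1.499 for the NF-κB regulator Tnip1, 1.47 for Nags, which activates Cps1, and 0.89 for the respiratory subunit Cox4i1.

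In 10 genes the EphB2-negative value was the lower. The difference was -1.80 for Ephb2, -3.06 for Sox9 and -2.77 for Slc12a2, all crypt genes. Replication and mitosis genes were Mcm6 at -1.66, Pole at -1.84, Top2a at -1.87, Kif11 at -1.91 and Tpx2 at -1.46. Kif12, which fell in both sorts, had -2.08, and Mmp7, which rose in both, had -2.78. Without WT replicate 1 the differences were -2.40 for Sox9, -1.79 for Slc12a2, -1.02 for Mcm6 and -0.88 for Tpx2. The test passed for 2 of the 27 without KO replicate 2.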

How the results depend on the processing

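No gene called with all libraries was called in the opposite direction under any alternative. The alternatives reuse the same libraries, and no called gene had log2 ratios of opposite sign against the WT libraries. A reversal was therefore hardly possible, and its absence is no separate support. DESeq2 size factors gave 1810 genes higher and 1581 lower in KO, no filter on low counts gave 1505 and 1721, a filter of 5 CPM in 2 libraries gave 1568 and 1899, and the pan-leukocyte score as a covariate gave 1374 and 1436. The DESeq2 tool called 1446 genes higher and 1105 lower, against 1586 and 1870, and limma voom with quality weights called 1614 in all, 866 higher and 748 lower. The 4 EphB2-negative libraries alone gave 149 in all, 116 higher and 33 lower. Leaving out each library in turn gave 1096 to 5834 in all, 608 to 2909 higher and 488 to 2925 lower, and of 142 named genes called, 70 passed in each of these fits. Of the same genes, 133 passed by DESeq2, 94 by limma voom, 115 with the covariate and 29 in the 4 libraries alone. Leave-one-out of the difference between the sorts, chosen after seeing the data, gave 40 to 3996 genes against 1430. A prior of 2 CPM left 33 genes with opposite ratios over 1 against the WT libraries, against 66. The cause of these shifts was not tested.

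The deviations of same-numbered WT and KO libraries correlated at -0.01 over 11577 genes. With 2 pairs this measure cannot exclude that the replicate numbers pair WT with KO libraries. Between same-numbered EphB2-positive and EphB2-negative libraries the correlation was 0.13 in WT and -0.01 in KO, and 4 Y-linked genes summed to 179 CPM in both fractions of WT replicate 1 and to 0 and 3.39 CPM in those of WT replicate 2. With both sorts of a genotype and number as 1 replicate block, chosen after seeing the data, the difference between the sorts passed for 1069 genes, 926 of them shared with the 1430. With the replicate number as a block, 2963 genes were called in the fit of all libraries (1458 higher, 1505 lower) and 17 in the 4 libraries alone (14 higher, 3 lower). Low counts limit genes without a WT or KO read to a bound.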
